A study of Rattus norvegicus with 12 samples.

Results

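The genes examined here are those of respiratory complex I, taken as every gene on the array with a symbol that begins with Nduf. Probe sets that carry exactly 1 such symbol in the platform's gene table were used, with the brightest probe set standing for a gene, which gave 49 genes of the 18166 tested. Of these, 40 are grouped as subunit genes and 9 as assembly factor genes (symbols that begin with Ndufaf). The 40 hold 32 accepted complex I subunits, Ndufa4 and its relative Ndufa4l2, and 6 copies or pseudogenes; the 9 hold the 8 assembly factors Ndufaf1 to Ndufaf8 and 1 pseudogene. The values come from urinary bladders of female Sprague Dawley rats aged about 3 months. The sham group holds 6 arrays of bladders after surgery alone, and the denervated group 6 arrays of bladders taken 10 days after surgery with freezing of the ganglia on both sides. Expression is given on a log2 scale, on which a difference of 1 is a doubling. Nothing in the labels states that every array holds a different animal, so p-values measure the spread between these samples.

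Complex I is the first enzyme of the mitochondrial respiratory chain. It takes electrons from NADH, passes them along a row of iron-sulphur clusters to ubiquinone and pumps protons across the inner membrane. Its peripheral arm is built from the N module, which binds NADH, and the Q module, which reduces ubiquinone, and its membrane arm holds a proximal and a distal part that pump protons. Nuclear genes encode most subunits, mitochondrial DNA encodes several of the membrane arm, and assembly factors join the modules without staying in the finished enzyme. Smooth muscle of the bladder wall, which loses its motor nerve supply on denervation, draws part of the energy for contraction from this chain.

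Most complex I genes were lower in denervated bladders. Of the 32 accepted subunits, 22 fell (68.8%), 0 rose and 10 did not pass the test, against 16.9% of all 18166 genes called lower and 11.9% called higher (28.7% in either direction). Here "fell" and "rose" mean an adjusted p under 0.05 in limma, with Benjamini-Hochberg adjustment over all genes tested. The median difference, denervated minus sham, was -0.27 over all 40 subunit genes and also over the 32 accepted ones, against -0.04 over all genes. All 32 differences were negative, as were 57.4% of those of all genes. Sizes were modest: the falls among the 22 ran from -0.21 to -0.82 on the log2 scale, so that denervated bladders held 56.7% to 86.7% of the sham signal. All 6 denervated arrays lay below all 6 sham arrays for 12 of the 32, and for 14 of all 49 genes, against 7.59% of all genes; the opposite held for 0 of the 49, against 5.76%. By the wider rule 27 of 40 subunit genes fell and 0 rose, and at an unadjusted p under 0.05 1 of the 40 was higher, Ndufa4l2. An exact rank-sum test and limma's treat, which asks for a change beyond 1.2-fold, also found 0 higher. In treat 5 of the 32 accepted subunits were lower (Ndufs4, Ndufv3, Ndufs7, Ndufs1 and Ndufa5), against 2.73% of all genes. In a fit restricted to genes above the median brightness, 31% of 9083 genes were called lower, and 25 of the 32 subunits were.

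**Figure D1:**
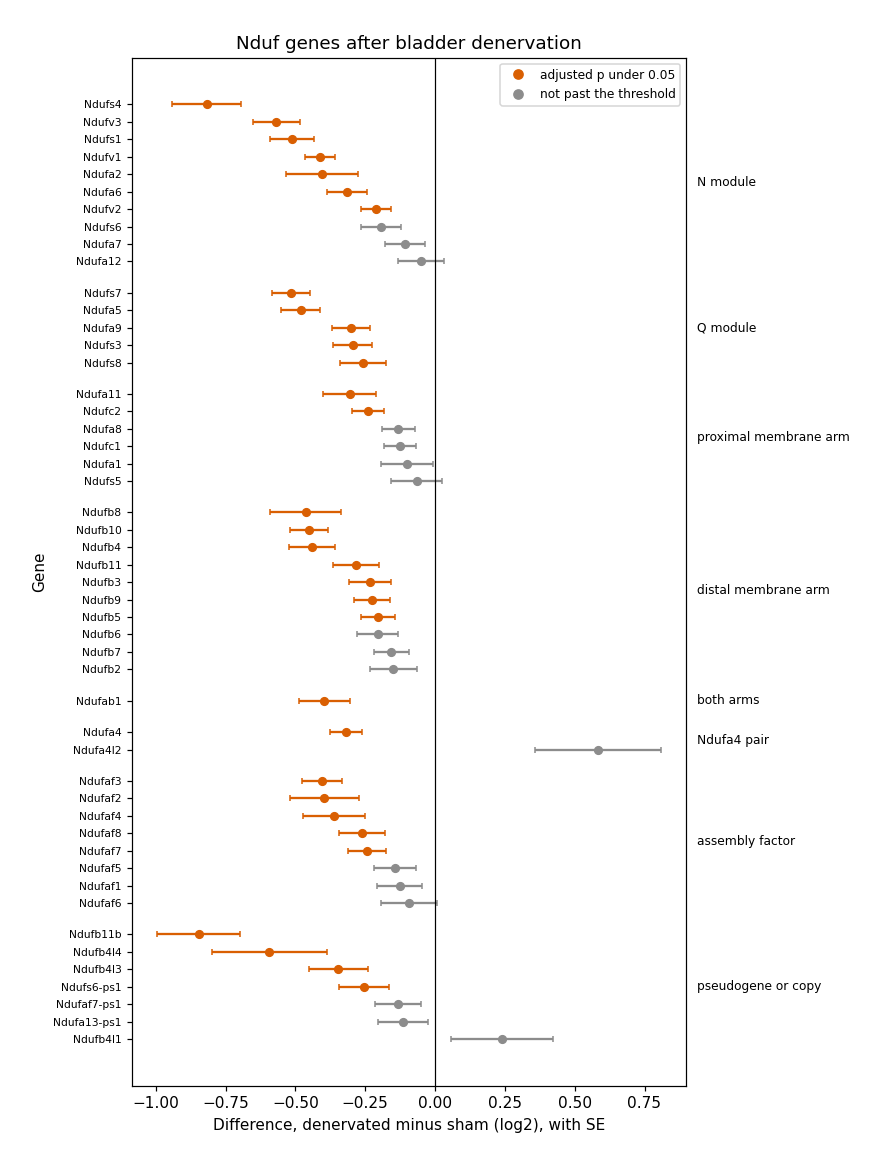
Difference between the group means, denervated minus sham, on the log2 scale for all 49 Nduf genes, ordered by size within each group of genes; bars are standard errors from limma with 6 arrays a group, and orange marks an adjusted p under 0.05. Apart from Ndufa4l2 (0.58) and Ndufb4l1 (0.24), neither past the threshold, every gene lies left of 0.

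**Figure D2:**
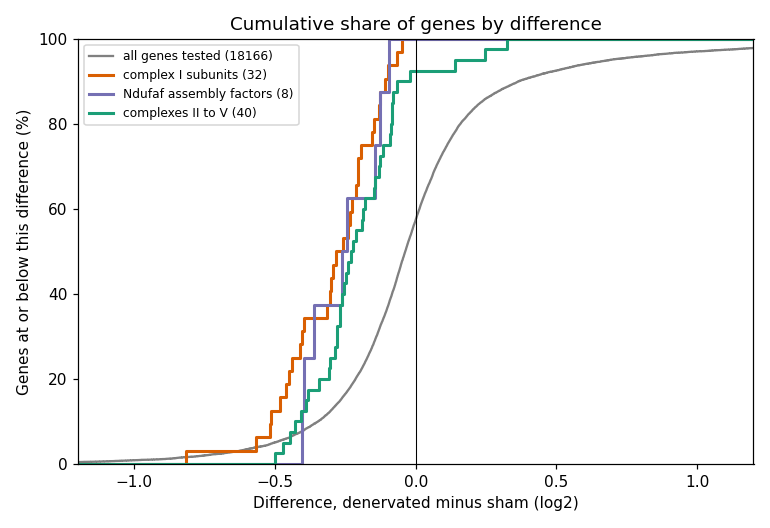
Percent of genes whose difference, denervated minus sham (log2), is at or below the value on the horizontal axis, for all 18166 genes tested, the 32 accepted complex I subunits, the 8 Ndufaf assembly factors and 40 genes of complexes II to V; values beyond the axis are not drawn. The curve of the complex I subunits reaches 100% left of 0, with a median of -0.27, while that of all genes has its median at -0.04.

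Other cell types moved along with these genes. In bulk tissue, fewer cells of a type and less RNA per cell cannot be told apart. All 8 macrophage markers measured rose (the list's mean deviation from sham was 1.04 to 1.99 in denervated bladders against -0.09 to 0.12 in sham), and all 9 urothelial markers fell (-0.97 to -0.59 against -0.10 to 0.16). Among 8 smooth muscle markers 5 fell, 1 rose and 2 were not called (-0.69 to -0.09 against -0.08 to 0.12). Mylk (-0.99) and Synpo2 (-0.99) fell most, and Smtn rose (0.51). Myh11, the smooth muscle myosin heavy chain, stood at 13.14 in sham and 12.63 in denervated arrays (-0.51, adjusted p = 0.00325). The labels put smooth muscle at over 95 percent of the tissue, and the 9 urothelial markers had sham means of 8.52 to 12.72; probe levels do not give a share of cells. All 5 proliferation markers rose (0.34 to 2.53 against -0.63 to 1.42), as did 3 of 6 fibroblast markers (0.11 to 0.76 against -0.16 to 0.16) and 1 of 3 endothelial ones (0.26 to 0.61 against -0.07 to 0.09). Of 5 striated muscle markers 1 rose and 1 fell. Of the 8 adipocyte markers, 2 fell and 0 rose (-0.71 to 0.28 against -0.23 to 0.28). Those that fell were Cidea (-0.80, from a sham mean of 8.21) and Fabp4 (-0.40). Ucp1, which marks brown fat, lay at 3.93 in sham and 4.03 in denervated arrays and was not called. Over all genes, 16.9% were called lower and 11.9% higher. Denervated replicate 2 stood apart from its group over all genes, at -5.84 on the first principal component against 25.94 to 42.52 for the other 5. The part of these shifts in the complex I result was not tested.

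The N module held the largest fall of an accepted subunit. Of its 10 genes, all measured, 7 fell (70%, against 16.9% of all genes), and the median difference was -0.36. Ndufs4, an accessory subunit that helps to hold the N module on the enzyme, lay at 10.13, 10.25 and 10.28 in sham bladders (lowest, median and highest) and at 9.15, 9.30 and 10.04 in denervated ones. The groups did not overlap, but the 10.04 of denervated replicate 2 lay close to the sham values, with the other 5 between 9.15 and 9.39. The difference was -0.82 ± 0.12 (SE, n = 6 per group, adjusted p = 0.000481), which leaves 56.7% of the sham signal. It was -0.94 without denervated replicate 2 (adjusted p = 5.22e-07).

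Ndufv3, a small accessory subunit of the same module, ranged from 8.35 to 8.83 around a median of 8.52 in sham and from 7.78 to 8.15 around 7.99 in denervated arrays, again with no overlap (-0.57 ± 0.08, adjusted p = 0.000427). A further probe set of Ndufv3 fell less, by 0.25. Both large core subunits of the module fell as well. Ndufs1, which carries iron-sulphur clusters, ranged from 9.28 to 9.53 (median 9.41) in sham and from 8.73 to 9.15 (median 8.85) in denervated bladders. Its difference was -0.51 ± 0.08 (adjusted p = 0.000517), and denervated replicate 2 was the highest of its group. Ndufv1, the subunit that binds NADH and the flavin, stood at 9.13 to 9.28 (median 9.24) against 8.76 to 8.97 (median 8.80). It fell by 0.41 ± 0.05 (adjusted p = 0.000225). Here too the groups were separate, and 5 denervated arrays lay within 8.76 to 8.81. Its partner Ndufv2, an iron-sulphur protein, changed less, from a sham range of 10.14 to 10.29 (median 10.24) to 9.93 to 10.13 (median 10.01), with the groups just apart. It fell by 0.21 ± 0.06 (adjusted p = 0.0114). The accessory subunits Ndufa2 (-0.40) and Ndufa6 (-0.32) fell, each with overlapping groups, whereas Ndufs6 (-0.19, adjusted p = 0.0628), Ndufa7 (-0.11) and Ndufa12 (-0.05) did not pass the test. Ndufa2 was no longer called once any of sham replicates 2 to 5 or of denervated replicates 1, 5 and 6 was left out (adjusted p = 0.0530 to 0.0703).

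All 5 measured genes of the Q module fell, against 16.9% of all genes, with a median of -0.30. Ndufs7, a core subunit that bears the last iron-sulphur cluster before ubiquinone, ranged from 9.41 to 9.70 (median 9.57) in sham bladders and from 8.97 to 9.23 (median 9.02) in denervated ones. The groups were apart, and denervated replicate 2 was again the highest of its group. The change was -0.52 ± 0.07 (adjusted p = 0.000225), to 69.9% of the sham signal. Ndufa5, an accessory subunit, spanned only 9.08 to 9.21 (median 9.16) in sham arrays and lay at 8.52 to 8.90 (median 8.64) after denervation (-0.48 ± 0.07, adjusted p = 0.000349). Ndufa9, which lies where the arms meet, fell by 0.30 with no overlap, and the core subunits Ndufs3 (-0.30) and Ndufs8 (-0.26) fell with some overlap. The call of Ndufs8 was lost without sham replicate 3, 4, 5 or 6 or denervated replicate 5 (adjusted p = 0.0513 to 0.0730). The 6 catalytic core subunits measured, which carry the electrons, all fell, by 0.21 to 0.52.

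**Figure D3:**
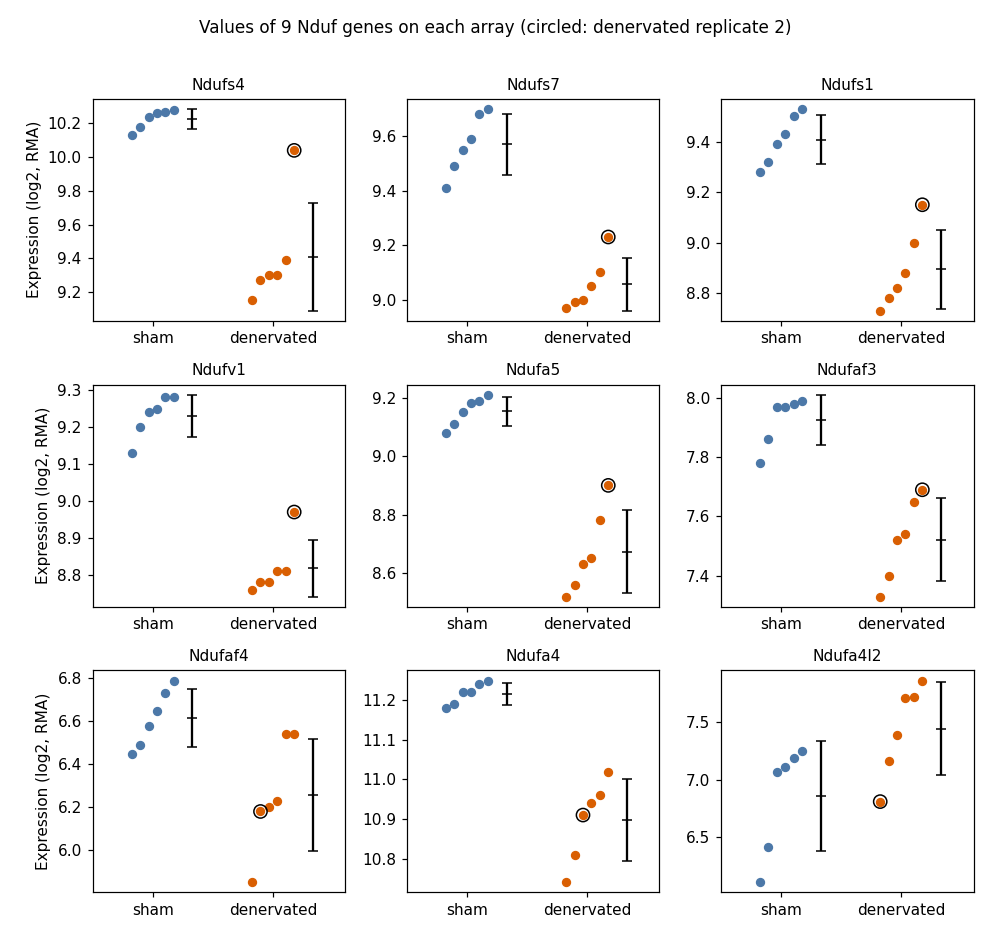
Log2 expression of 9 Nduf genes on each array, sham in blue and denervated in orange, with points ordered by value within a group, the mean and SD (n = 6) beside them and a circle around denervated replicate 2; each panel has its own vertical scale. In Ndufs4 the circled array (10.04) sits near the sham values, and Ndufa4l2 is the panel in which denervated values tend to lie higher.

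In the membrane arm the proximal part had the smaller median difference among the genes counted. Of its 9 listed genes 6 were measured, of which 2 fell (33.3%), and the median was -0.13. That share is close to the 31% called lower in the fit of genes above the median brightness, with 16.9% over all genes. Ndufa10 and Ndufa3 had only probe sets shared with copies, which were not counted. These stood at -0.32 (limma adjusted p = 0.0163 over all probe sets) and -0.26 (adjusted p = 0.0787). A shared probe set of Ndufs5 stood at -0.01. Ndufa11, which helps to hold the membrane arm together, fell from a mean of 9.47 to 9.16 (-0.31 ± 0.09, adjusted p = 0.0271). That call was lost without sham replicate 3, 5 or 6 or denervated replicate 4 (adjusted p = 0.0514 to 0.0628). Ndufc2 fell by 0.24 ± 0.06 (adjusted p = 0.00645), while Ndufa8 (-0.13), Ndufc1 (-0.13), Ndufa1 (-0.10) and Ndufs5 (-0.07), all accessory subunits, were not past the threshold. Ndufa8 was called without denervated replicate 2 (-0.16, adjusted p = 0.0331).

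The distal part had 7 of 10 genes lower (70%, against 16.9% of all genes) and a median of -0.23. Ndufb8 led by size, with sham values of 8.19 to 8.55 (median 8.24) and denervated values of 7.43 to 8.11 (median 8.00). The groups lay apart by little, and denervated replicates 3 and 6, at 7.48 and 7.43, were far below the other 4 (-0.46 ± 0.13, adjusted p = 0.0150). Ndufb10 (-0.45) and Ndufb4 (-0.44) fell with no overlap between groups. Ndufb11 (-0.28), Ndufb3 (-0.23), Ndufb9 (-0.23) and Ndufb5 (-0.21) fell with overlap, and Ndufb6 (-0.21, adjusted p = 0.0502), Ndufb7 (-0.16) and Ndufb2 (-0.15) were not called. Ndufb6 was called without sham replicate 2 (adjusted p = 0.0392) or denervated replicate 1 (0.0250). Leaving out sham replicate 2, 3, 4, 5 or 6 or denervated replicate 3, 4, 5 or 6 ended the call of Ndufb3 (adjusted p = 0.0520 to 0.0733). Ndufab1, the mitochondrial acyl carrier protein, which sits in both arms, fell by 0.40 ± 0.09 (adjusted p = 0.00541). Whether the modules differ from each other was not tested.

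**Figure D4:**
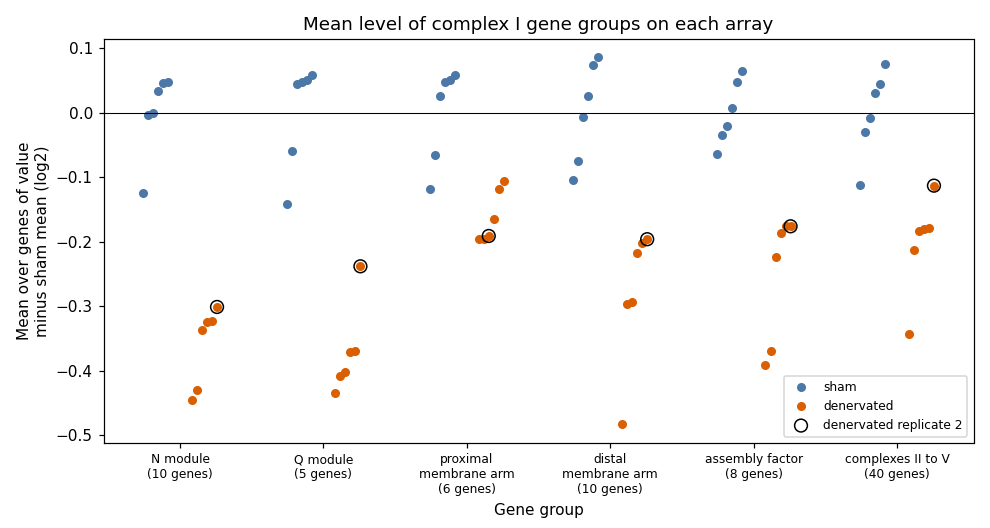
Mean over the genes of a group of each array's value minus the sham mean of that gene (log2), for 4 modules of complex I, the 8 assembly factors and 40 genes of complexes II to V; sham arrays are blue, denervated arrays orange, denervated replicate 2 is circled, and points are ordered by value. In the N and Q modules all 6 denervated arrays lie below all 6 sham arrays, while in the proximal membrane arm sham replicate 1 (-0.12) lies below the highest denervated array (-0.11), and in complexes II to V the groups touch at -0.11.

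The fall was shared by the denervated arrays to differing degrees. The mean over the 32 accepted subunits lay -0.42 to -0.24 from the sham mean in denervated arrays and -0.12 to 0.07 in sham arrays. Denervated replicate 6 was the lowest of its group for 16 of the 42 genes that are neither copies nor pseudogenes, and denervated replicate 2 the highest for 13. Sham replicate 1 was the lowest sham array for 24 of the 42. Leaving out denervated replicate 2 gave 23 of 32 accepted subunits lower, and leaving out each array in turn gave 18 to 23.

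Promoter sequences are shown for Ndufs4 and Ndufs7, whose falls were the largest in their modules, and for Ndufv3 and Ndufa11, which hold a match to the site of another regulator of mitochondrial genes. Of the 42 genes, 39 have a promoter in the RefSeq table used (assembly GRCr8), a window of 300 bases with 250 before and 50 after the annotated start. Each is printed 5′ to 3′ on the strand of the gene, and capitals mark AAGATGGC, the core of the YY1 site, in Ndufs4 and Ndufs7, and the core of the NRF1 site, GCGCA followed by any base and GCGC, in Ndufv3 and Ndufa11, where overlapping matches run together.
Ndufs4 (chr2:47794865-47795164, minus strand): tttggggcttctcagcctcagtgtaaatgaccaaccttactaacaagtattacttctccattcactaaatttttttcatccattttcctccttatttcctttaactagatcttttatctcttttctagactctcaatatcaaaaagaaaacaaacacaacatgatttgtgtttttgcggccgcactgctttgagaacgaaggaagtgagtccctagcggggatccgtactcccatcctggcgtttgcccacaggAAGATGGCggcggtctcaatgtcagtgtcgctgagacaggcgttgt
Ndufs7 (chr7:10110449-10110748, minus strand): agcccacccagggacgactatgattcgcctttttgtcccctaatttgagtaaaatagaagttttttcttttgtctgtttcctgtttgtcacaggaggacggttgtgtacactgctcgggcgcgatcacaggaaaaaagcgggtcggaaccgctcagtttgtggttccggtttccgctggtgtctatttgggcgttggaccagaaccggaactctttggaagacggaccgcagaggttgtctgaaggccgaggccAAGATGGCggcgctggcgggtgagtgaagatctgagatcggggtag
Ndufv3 (chr20:9613536-9613835, plus strand): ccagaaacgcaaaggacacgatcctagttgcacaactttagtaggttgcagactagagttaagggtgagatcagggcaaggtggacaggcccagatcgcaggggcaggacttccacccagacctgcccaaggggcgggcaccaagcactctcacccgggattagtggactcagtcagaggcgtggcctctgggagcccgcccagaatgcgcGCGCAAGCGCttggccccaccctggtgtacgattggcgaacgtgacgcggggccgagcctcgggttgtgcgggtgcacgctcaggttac
Ndufa11 (chr9:1637364-1637663, plus strand): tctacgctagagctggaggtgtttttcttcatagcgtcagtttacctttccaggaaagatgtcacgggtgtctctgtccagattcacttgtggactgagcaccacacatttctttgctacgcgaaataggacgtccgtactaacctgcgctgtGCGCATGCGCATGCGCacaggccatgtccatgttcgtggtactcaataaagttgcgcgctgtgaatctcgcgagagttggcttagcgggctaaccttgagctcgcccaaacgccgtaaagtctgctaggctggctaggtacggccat

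The motifs searched, on both strands, were GCGCA followed by any base and GCGC (NRF1), AAGATGGC (YY1), CCGGAAG (ETS factors such as GABPA), TCAAGGTCA (estrogen-related receptors) and ACGTG (the core of the hypoxia response element). AAGATGGC was found in 9 of the 39 promoters (23.1%), against 3.96% of 15971 promoters of genes tested on the arrays. In all 9 it lay on the strand of the gene with its first base between 1 base before and 27 bases after the start. A match on that strand within that stretch, which was chosen after the matches were seen, occurred in 1.42% of the genes tested. The NRF1 core was present in 9 promoters (23.1% against 6.51%), CCGGAAG in 8 (20.5% against 12.2%), ACGTG in 10 (25.6% against 21.4%) and TCAAGGTCA in 0 (against 0.301%). The median GC content was 57% both in the 39 and in all genes tested, but the 39 held a median of 20 CpG sites against 15. Between the 27 of these genes that fell and the 12 that were not called, the motif shares were 25.9% and 16.7% for AAGATGGC and 18.5% and 33.3% for the NRF1 core, the latter being 5 and 4 genes. A match is a stretch of letters and does not show binding.

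The 9 stretches around AAGATGGC are printed with the motif in capitals and the bases on either side, and 8 of the 9 continue with GGC. The motif contains ATG, the letters of a start codon. Whether the likeness belongs to the YY1 site or to the start of the coding sequence was not tested.
Ndufs4 (chr2:47794892-47794921, minus strand): ttgcccacaggAAGATGGCggcggtctcaa
Ndufs7 (chr7:10110476-10110505, minus strand): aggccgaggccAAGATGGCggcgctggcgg
Ndufaf8 (chr10:105879899-105879928, plus strand): aggcagggcccAAGATGGCggcgcccacaa
Ndufa9 (chr4:161374142-161374171, minus strand): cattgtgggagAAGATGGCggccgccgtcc
Ndufa6 (chr7:115750284-115750313, minus strand): gcttccttagcAAGATGGCggccgcggcca
Ndufb8 (chr1:253362897-253362926, minus strand): cggagaaggtgAAGATGGCggcgtcccggg
Ndufs6 (chr1:31797412-31797441, plus strand): gggtcgtcggcAAGATGGCggcggcgctga
Ndufa2 (chr18:28631840-28631869, minus strand): ctttgctagcaAAGATGGCggccgcaagcc
Ndufa4l2 (chr7:65242157-65242186, plus strand): gacactggaacAAGATGGCaggaaccagtc
Of these genes, Ndufs6 and Ndufa4l2 were not called, and the other 7 fell.

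Ndufa4 and Ndufa4l2 differed from each other in their response. Ndufa4, first described in complex I and now counted as a subunit of complex IV, ranged from 11.18 to 11.25 (median 11.22) in sham bladders and from 10.74 to 11.02 (median 10.93) in denervated ones, with no overlap (-0.32 ± 0.06, adjusted p = 0.00123). Ndufa4l2, its relative, which is known to rise in hypoxia, ranged from 6.11 to 7.25 (median 7.09) and from 6.81 to 7.86 (median 7.55). Sham replicates 1 and 2 were low, at 6.42 and 6.11, and denervated replicate 2, at 6.81, was the lowest of its group. The difference of 0.58 ± 0.23 was not past the threshold (adjusted p = 0.0688), and it was called without denervated replicate 2 (0.71, adjusted p = 0.0207). Within each array, log2 Ndufa4l2 minus log2 Ndufa4 lay between -5.11 and -4.00 in sham and between -4.11 and -3.07 in denervated bladders. The shift of 0.90 between the group means passed an exact permutation test over the 924 splits of the arrays (two-sided p = 0.00649, where the smallest possible is 0.00216). The groups overlapped through denervated replicate 2, and the ratio shows unequal change only.

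Most of the assembly factor genes were lower too. Of Ndufaf1 to Ndufaf8, 5 fell, 0 rose and 3 did not pass the test (62.5% lower, against 16.9% of all genes), and the median difference over the 8 was -0.25, or -0.24 with the pseudogene Ndufaf7-ps1. By unadjusted p under 0.05, by the rank-sum test and by treat against 1.2-fold, 0 of the 9 were higher. Treat, which asks for the larger change, also called 0 of the 9 lower, against 2.73% of all genes. The mean over the 8 lay -0.39 to -0.18 from the sham mean in denervated arrays and -0.06 to 0.06 in sham arrays. Ndufaf3, which with Ndufaf4 helps to build the Q module, ranged from 7.78 to 7.99 (median 7.97) and from 7.33 to 7.69 (median 7.53), with no overlap (-0.40 ± 0.07, adjusted p = 0.00123). Ndufaf4 lay at 6.45 to 6.79 (median 6.61) in sham bladders and at 5.85 to 6.54 (median 6.21) in denervated ones. Denervated replicates 3 and 6, both at 6.54, fell within the sham range (-0.36 ± 0.11, adjusted p = 0.0262). Ndufaf2, a chaperone of the N module, lay at 5.18 to 5.45 (median 5.27) against 4.41 to 5.27 (median 4.88). It fell by 0.40 ± 0.12 (adjusted p = 0.0295), with denervated replicates 2 and 6 inside the sham range.

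Ndufaf7, a methyltransferase, ranged from 7.21 to 7.52 (median 7.35) and from 7.00 to 7.28 (median 7.14), and only denervated replicate 6 reached the sham range (-0.24 ± 0.07, adjusted p = 0.0174). Ndufaf8 went from 7.53 to 7.85 (median 7.81) to 7.25 to 7.60 (median 7.53), a difference of -0.26 ± 0.08 (adjusted p = 0.0311). Its partner Ndufaf5, which modifies Ndufs7, lay at 6.96 to 7.23 (median 7.14) in sham and 6.70 to 7.08 (median 7.04) in denervated arrays and was not called (-0.14, adjusted p = 0.179). Ndufaf1, an early factor of the membrane arm, ranged from 7.20 to 7.38 (median 7.30) and from 6.93 to 7.39 (median 7.22), so that the denervated values spanned the sham ones (-0.13, adjusted p = 0.272). The same held for Ndufaf6, at 6.98 to 7.31 (median 7.13) against 6.80 to 7.34 (median 7.00; -0.09, adjusted p = 0.536). The number called lower rests on single arrays. It was 4 when sham replicate 1 or 3 or denervated replicate 6 was left out, 3 when sham replicate 4 or denervated replicate 4 or 5 was, and 2 when sham replicate 5 or 6 was, with Ndufaf2, Ndufaf4 and Ndufaf8 the genes that lost their calls (adjusted p = 0.0503 to 0.0698). By the rank-sum test 2 were lower. Whether subunits and assembly factors differ in their response was not tested.

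The 7 copies and pseudogenes can share probe signal with their parent genes and are uncertain for that reason. Ndufb11b, a copy of Ndufb11, showed the largest fall of all 49, from 5.66 to 6.27 (median 6.06) in sham arrays to 4.81 to 5.72 (median 5.15) in denervated arrays. The groups overlapped only through denervated replicate 1 (-0.85 ± 0.15, adjusted p = 0.00116). Ndufb4l4, a copy of Ndufb4, ranged from 5.71 to 6.17 (median 5.99) and from 4.44 to 5.95 (median 5.46), with denervated replicate 5 the lowest (-0.59 ± 0.21, adjusted p = 0.0452). Its call was lost when sham replicate 1, 3, 4, 5 or 6 or denervated replicate 1, 3, 5 or 6 was left out (adjusted p = 0.0516 to 0.0902). Ndufb4l3 (-0.35) and Ndufs6-ps1 (-0.26) fell, both with overlap. The call of Ndufb4l3 was lost on leaving out any of sham replicates 2 and 4 and denervated replicates 1, 4 and 5 (adjusted p = 0.0503 to 0.0581). That of Ndufs6-ps1 was lost on leaving out any array but sham replicate 3 and denervated replicates 1 and 2 (adjusted p = 0.0656 to 0.0949). Ndufb4l1 (0.24), Ndufa13-ps1 (-0.11) and Ndufaf7-ps1 (-0.13) were not called. Sham means of the copies of Ndufb4 and Ndufb11 and of the pseudogenes of Ndufa13 and Ndufaf7 lay between 3.22 and 6.25. That of Ndufs6-ps1 was 8.47, above the 7.23 of Ndufs6, which was not called.

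Among assembly factors with other symbols a minority fell. Of 15 listed, 13 were measured: 5 fell, 0 rose and 8 did not pass the test, with a median of -0.20 and 13 negative differences. Tmem126a (-0.49 ± 0.11), Tmem70 (-0.38), a factor also of ATP synthase, Ecsit (-0.33), Acad9 (-0.25) and Dmac1 (-0.23), the last named after its value was seen, fell, whereas Tmem126b (-0.23, adjusted p = 0.0742), Nubpl, which supplies iron-sulphur clusters (-0.14), and Timmdc1 (-0.02) were not called. Foxred1 was not analysed here. At 38.5%, the share of these 13 genes called lower compares with 16.9% of all genes. The subunits encoded in mitochondrial DNA were not analysed here.

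The genes of complexes II to V are given beside those of complex I. Of 40 measured, 23 fell (57.5%) and 1 rose (2.5%), with a median of -0.23. Over all genes, 16.9% were called lower and 11.9% higher, and 31% were lower in the fit of genes above the median brightness. The test of a difference between the complexes was not made. In complex II, succinate dehydrogenase, 3 of 4 fell, led by Sdha (-0.47 ± 0.08). Complex III had 5 of 8 lower, with Cyc1, cytochrome c1, at -0.43. Of complex IV, cytochrome oxidase, 5 of 14 fell (35.7%, close to the 31% of brighter genes), among them Cox6c (-0.50) and Cox8a (-0.45). In complex V, ATP synthase, 10 of 14 fell, with Atp5f1b at -0.41 and Atp5f1a at -0.39, and Atp5pd, named after its value was seen, rose by 0.25. The mean over the 40 genes lay -0.34 to -0.11 from the sham mean in denervated arrays and -0.11 to 0.08 in sham arrays.

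Among 13 regulators of mitochondrial genes, 4 fell (30.8%) and 0 rose. Of all genes 16.9% were called lower, and 31% were in the fit of genes above the median brightness. Ppargc1a, the coactivator PGC-1α, which drives the expression of respiratory genes, lay between 6.93 and 7.14 in sham bladders and between 5.12 and 6.11 in denervated ones. Denervated replicate 2, at 6.11, was nearest to the sham values, as that array was over all genes on the first principal component. The other 5 lay between 5.12 and 5.45. The difference was -1.65 ± 0.14 (adjusted p = 2.78e-05). Ppargc1b, its close relative, fell by 0.64, Gabpa, which binds ETS sites, by 0.23, and Tfb2m, a mitochondrial transcription factor named after its value was seen, by 0.22. Nrf1 (0.02), Esrra (0.02) and Tfam (-0.25, adjusted p = 0.134) did not pass the test, nor did Yy1 (-0.06), named here for its motif. The largest positive difference among the 13, that of Pprc1 (0.22, adjusted p = 0.114), named after its value was seen, was not called either. Whether any of these regulators has a part in the complex I result was not tested.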

How the data were processed

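Total RNA was biotin-labelled and hybridised to 1 array per sample (12 arrays). The authors deposited log2 expression values of 36685 probe sets, made, per the submitters' processing notes, by RMA in Affymetrix Expression Console 1.4.1.46; RMA quantile-normalizes the arrays, which removes any shift common to all genes. No detection call per probe was used. The genome build was not given in the sources used here. By the platform's annotation, 18511 probe sets carry 1 symbol, 575 several (3 of them with Nduf symbols, not used as members) and 17599 none here. Symbols were checked by gene identifier against RefSeq (GRCr8; 0 updated). The probe set with the highest mean stood for a gene, which left 18166 genes and 49 with Nduf symbols (51 probe sets), with no filter on dim genes.

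A linear model per gene with moderated variance (lmFit, eBayes) gave denervated minus sham, two-sided, using limma 3.58.1 under R 4.3.3. P-values were adjusted over the 18166 genes by Benjamini-Hochberg, and 0.05 was the limit for a call; every adjusted p comes from this fit, or from the same fit without an array where one is named as left out, unless another test is named. The code was tested on simulated data. Members, modules and lists were chosen with earlier results of these data known. Named in full were the 8 largest called falls, Ndufs1, Ndufv1, Ndufv2, Ndufa4, Ndufa4l2 and Ndufaf1 to Ndufaf8, and up to 3 called genes of each other list beside a fixed set of regulators and assembly factors. Alternatives (normalization, filters on dim genes, other tests, single arrays left out) stand in the closing section. Replicate numbers did not pair the samples. The part of scan dates or batches, which were not used here, was not tested.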

Additional observations from a re-analysis of the deposited data

Results flagged for a closer look

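Of 104 sets of 6 values examined (each of the 49 genes and 3 summaries in each group), 6 held an array far from the other 5 of its group by Dixon's test, which chance does in about 1 in 20 sets. In denervated replicate 2, Ndufs4 stood at 10.04 (other 5 between 9.15 and 9.39) and Ndufv1 at 8.97 (8.76 to 8.81), in each case on the side of the sham values. Ndufs8 was low in denervated replicate 6, at 8.25 against 8.56 to 8.67, and Ndufaf5 in denervated replicate 1, at 6.70 against 6.97 to 7.08. The pseudogene Ndufaf7-ps1 was high in denervated replicate 4, at 3.39 against 2.92 to 3.10. Among sham arrays, replicate 1 held a low Ndufb4l1, at 4.52 against 5.22 to 5.61.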

How the results depend on the processing

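Of the 32 Nduf genes called lower, 18 kept their call and direction under each of the following alternatives that included them (a further quantile normalization, median centring, filters on dim genes, trend and robust eBayes, array weights, an exact rank-sum test, the mean of probe sets, the replicate block and leaving out each array). Under some of these, 5 of 17 uncalled genes were called. The test against 1.2-fold is not among these and is given below. Ndufb11b, among the 18, was not in the fit of genes above the median brightness. The direction of 1 gene reversed: Ndufa12, at -0.05, ranged from -0.097 to 0.00070 when single arrays were left out, the latter without denervated replicate 6 (adjusted p = 0.996). Median centring called Ndufb6, Ndufb7 and Ndufs6 lower too. Quantile normalization ended the calls of Ndufb3, Ndufb5, Ndufs8 and Ndufs6-ps1 and called Ndufs6 lower (-0.20, limma adjusted p = 0.0492). Subunit genes lower numbered 27, with 21 to 28 when single arrays were left out, and accepted subunits, a count added after seeing the data, 22, with 18 to 23. Under the test against 1.2-fold these counts were 6 and 5, assembly factors lower were 0, and 1252 of all genes were called in place of 5216, since that test asks for a larger change. Assembly factors lower numbered 5, with 2 to 5 when single arrays were left out, 2 by the rank-sum test and 3 in the fit of genes above the median brightness, which held fewer of them (6 of 9). Subunit genes higher numbered 1, Ndufa4l2, with array weights, in the fit of brighter genes, with the replicate block and without denervated replicate 2, so that leaving out single arrays gave 0 to 1; for array weights and the block, the cause was not tested. Medians moved within -0.31 to -0.25 (subunits) and -0.28 to -0.21 (assembly factors) when single arrays were left out, and the shift of Ndufa4l2 against Ndufa4 within 0.75 to 1.03. Same-numbered sham and denervated arrays deviated together with correlations of -0.11 to 0.10, so the numbers do not pair the samples; with the replicate block 18 subunit genes and 4 assembly factors were lower, and 15 accepted subunits. Signal over background is unknown, which limits the dim members.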

Other observations

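Probe sets that carry a symbol of complex I together with that of a copy were left out of the counts. The probe set of Ndufa10 and Ndufa10l1 fell from 10.75 to 10.44 (-0.32 ± 0.08, limma adjusted p = 0.0163 over all probe sets), with denervated replicate 2, at 10.78, inside the sham range of 10.72 to 10.79 and the other 5 between 10.31 and 10.41. That of Ndufa3 and Ndufa3-ps3 stood at 7.90 and 7.65 (-0.26 ± 0.09, adjusted p = 0.0787), and that of Ndufs5 and Ndufs5-ps2 at 7.42 and 7.41 (-0.01, adjusted p = 0.956). The further probe set of Ndufb3 was not called (-0.15, adjusted p = 0.219).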
